A study of Arabidopsis thaliana with 12 samples.

Results

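Serine carboxypeptidase-like (SCPL) genes were followed in imbibed seeds of Arabidopsis thaliana. The members were all genes whose symbol in the supplied probe set annotation is SCPL, in either case, followed by a number, each read from a probe set that matches 1 gene. There were 29 such genes among 13356 genes with a probe set, and each had 1 probe set, so no choice between probe sets arose. The RefSeq annotation numbers the family from 1 to 51, so 22 numbers had no member here. Of SCPL1 to SCPL19 only 2 were measured, scpl16 (AT3G12220) and scpl18 (AT1G33540), against 27 of the 32 numbers from 20 to 51. The family genes known by other names, SNG1 (SCPL8), SCPL19 (SNG2) and BRS1 (SCPL24), had no probe set of their own in this annotation and were not analysed here. A further 2 probe sets match several genes, scpl36 with scpl37 and scpl39 with AT3G56540, and were kept out of the counts.

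The seeds were of the Col-0 wild type or of pil5 (Salk_072677), an insertion line in the gene for PIL5, a phytochrome-interacting bHLH factor also called PIF1. Imbibed seeds of every group were given 5 min of far-red light at 3.2 umol per square metre and second. The red groups then received a red pulse of 5 min at 13 umol per square metre and second, and all seeds were kept in the dark for 12 h before RNA was taken. Each of the 4 groups held 3 biological replicates. They are called dark where far-red light came last and red where the red pulse followed, for either genotype. The pil5 mutant was 1 line, and whole seeds were sampled, so that fewer cells of a type and less RNA per cell cannot be told apart.

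Serine carboxypeptidases cut single amino acids from the carboxyl end of proteins and peptides with a catalytic serine, and most are sorted to the vacuole or secreted. In germinating cereal grains of barley and wheat such enzymes take part in breaking down storage protein. Some members of the family have become acyltransferases: in Arabidopsis SNG1 and SCPL19 pass sinapate from sinapoylglucose to malate and to choline, and the low numbers of the family belong to this branch. BRS1, in turn, was found as a suppressor of a brassinosteroid receptor mutant. The far-red pulse turns phytochrome into its inactive form and holds back germination, while red light activates phytochrome, which removes PIL5, a repressor of germination.

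The array medians lay between 6.08 and 6.28 on the log2 scale. Precision is limited by having 3 arrays a group. The pil5 red array of number 3 stood apart. It correlated with the other 2 of its group at r from 0.968 to 0.975, where other pairs within groups had 0.982 to 0.997. In the other groups number 3 was also the array least like its group. Its r there was 0.982 to 0.9897, against 0.9965 to 0.9972 between numbers 1 and 2. The bioC spike-in control of the pil5 red array of number 3 read 7.45, against 8.77 to 9.21 on the other 11 arrays. The 3' signal of the actin control exceeded the 5' signal by 4.14 to 4.61 on the log2 scale over the 12 arrays. This difference in the pil5 red array of number 3 lay within the range of the others. It was large on every array, so it is no sign of good RNA quality, and its part in the SCPL values was not tested. Of 11 seed storage and oleosin markers 1 was measured, the storage protein gene PAP85, and it read 12.11 to 13.72. Of 6 green leaf markers only RCA was measured (6.84 to 7.79). Of 3 root markers PYK10 read 5.01 to 10.55, lowest on the pil5 red array of number 3, and EXPA7 read 4.09 to 4.72. Of 2 pollen markers AT5G07430 was measured and read 3.79 to 4.01. No probe set was tied to PIL5, so the mutated gene could not be checked.

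The family fell into a bright and a dim part. Signals of 18 members stayed below 6 on all 12 arrays, between 3.41 and 5.72, and no such member varied by more than 0.82 over the 12 arrays. The other 11 members, which were scpl20, scpl25, scpl26, scpl29, scpl35, scpl42, scpl44, SCPL45, scpl48, SCPL49 and scpl50, reached between 7.30 and 12.95 on at least 1 array. The value of 6, close to the array medians, was chosen after the signals were seen. Signals of different probe sets depend on their probes, so this split does not rank the amounts of RNA. Both measured genes of the acyltransferase branch were dim, scpl16 at 3.41 to 3.80 and scpl18 at 3.56 to 4.09.

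**Figure D1:**
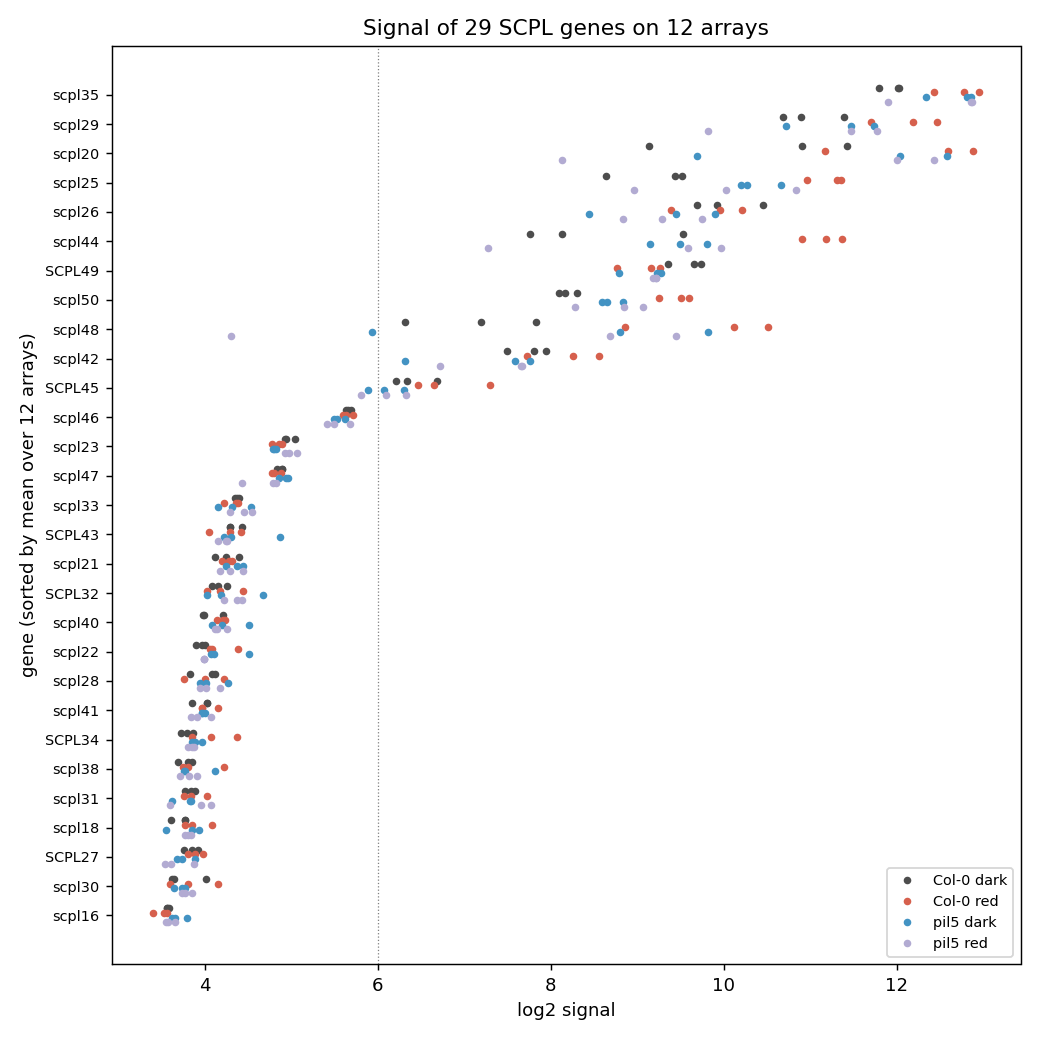
Log2 signal (x axis) of the 29 SCPL genes (y axis, sorted by mean) on the 12 arrays, 1 point per array, coloured by group. The dotted line marks a signal of 6: 18 genes stay below it on all arrays, and the spread between arrays is found among the other 11.

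The members include 2 pairs of neighbouring genes. The genes scpl28 (AT2G35770) and scpl26 (AT2G35780) lie next to each other on the chromosome, with no protein-coding gene between them. The probe set of scpl28 read 3.76 to 4.27 over the 12 arrays, and that of scpl26 read 8.44 to 10.45, levels that cannot be set against each other across probe sets. The other adjacent pair of members, scpl22 (AT2G24000) and scpl23 (AT2G24010), was dim throughout, at 3.90 to 4.51 and 4.78 to 5.07. The shared probe sets were dim as well: the one for scpl36 and scpl37 read 3.47 to 3.95, and the one for scpl39 and AT3G56540 read 3.78 to 4.22. Neither passed in any comparison (limma, adjusted p of 0.24 or more, and 0.12 or more with the block).

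The first comparison asked which SCPL transcripts differed after the red pulse in Col-0. In the bright part 3 genes rose, scpl44, scpl25 and scpl50, by 6.40-fold, 4.02-fold and 2.41-fold. With the replicate number as a block another 5 rose, scpl48, scpl20, scpl29, scpl35 and SCPL45, and SCPL49 fell. Between red and dark the members scpl26 and scpl42 differed by -0.17 (SE 0.37) and 0.43 (SE 0.38) on the log2 scale and did not pass, and none of the 18 dim members passed. All log2 changes carry the standard error (SE) of a limma fit of all 12 arrays, with n = 3 per group, and a member was called where its p, adjusted by Benjamini-Hochberg over 22746 probe sets, was below 0.05.

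The signal of scpl25 (AT3G02110) in Col-0 dark was 9.52, 8.64 and 9.44 in replicate numbers 1 to 3, and in Col-0 red it was 11.31, 10.96 and 11.35. All 3 red arrays lay above all 3 dark arrays. The change was 2.01 (SE 0.40, adjusted p = 0.0079), and the call held without any 1 of the 12 arrays (adjusted p up to 0.042). For scpl50 (AT1G15000) the dark arrays read 8.30, 8.09 and 8.17 and the red arrays 9.60, 9.51 and 9.25. These groups were also apart, with the tightest replicates of the 3 genes called, and the change was 1.27 (SE 0.18, adjusted p = 0.002). This call too held without any 1 array (adjusted p up to 0.014).

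The largest change of the 3, that of scpl44 (AT1G43780), rested on more variable arrays. In Col-0 dark it read 8.13, 7.76 and 9.53, and in Col-0 red 11.18, 10.90 and 11.37. The dark array of number 3 was the high one, so the difference was 3.05 and 3.14 in numbers 1 and 2 and 1.84 in number 3. The fitted change was 2.68 (SE 0.63, adjusted p = 0.017). Its call ended without dark array 1, dark array 2, red array 1 or red array 3 of Col-0, with adjusted p up to 0.082.

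In several other bright members the dark and the red array of a replicate number were high or low together. The signal of scpl48 (AT3G45010) was lowest in number 3 in every group: 7.83, 7.19 and 6.32 in Col-0 dark, and 10.51, 10.12 and 8.86 in Col-0 red. The red arrays were nevertheless all above the dark ones, and the difference within a number was 2.69, 2.93 and 2.54. The fitted change of 2.72 had SE 1.28 and adjusted p = 0.21, which became SE 0.64 and adjusted p = 0.012 in the blocked fit. In scpl20 (AT4G12910) the dark arrays read 11.42, 10.90 and 9.13 and the red arrays 12.88, 12.59 and 11.17. The groups overlapped, since the red array of number 3 lay below the dark array of number 1, while the differences within numbers were 1.47, 1.69 and 2.04. The change of 1.73 had SE 1.14 (adjusted p = 0.4), which the block brought to SE 0.41 (adjusted p = 0.013).

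The next 3 members rose with the block by smaller amounts. For scpl29 (AT4G30810) the dark arrays read 11.39, 10.89 and 10.68 and the red arrays 12.46, 12.18 and 11.70, a change of 1.13 (SE 0.46, adjusted p = 0.14, and 0.0069 with the block). For scpl35 (AT5G08260) they read 12.02, 12.01 and 11.79 in the dark and 12.95, 12.77 and 12.43 after red, a change of 0.77 (SE 0.25, adjusted p = 0.066, and 0.003 with the block). In both genes every red array lay above every dark array. The dim scpl16, scpl18, scpl22 and scpl23 did not overlap between these groups either, with changes of only -0.12 to 0.22. How many of all probe sets did not overlap was not counted in any comparison, so such separation is no result about the family. SCPL45 (AT1G28110) read 6.69, 6.21 and 6.34 in the dark and 7.30, 6.65 and 6.47 after red, so its groups overlapped. Its change was 0.39 (SE 0.22, adjusted p = 0.31, and 0.025 with the block).

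SCPL49 (AT3G10410) went the other way. RefSeq lists it as carboxypeptidase Y, after the vacuolar enzyme of yeast that degrades peptides. It read 9.74, 9.66 and 9.35 in Col-0 dark and 9.26, 9.16 and 8.76 in Col-0 red. All red arrays were below all dark arrays, and the difference within numbers was -0.48, -0.49 and -0.60. The fitted change was -0.52 (SE 0.16, adjusted p = 0.058, and 0.0059 with the block), so its call rested on the block.

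**Figure D2:**
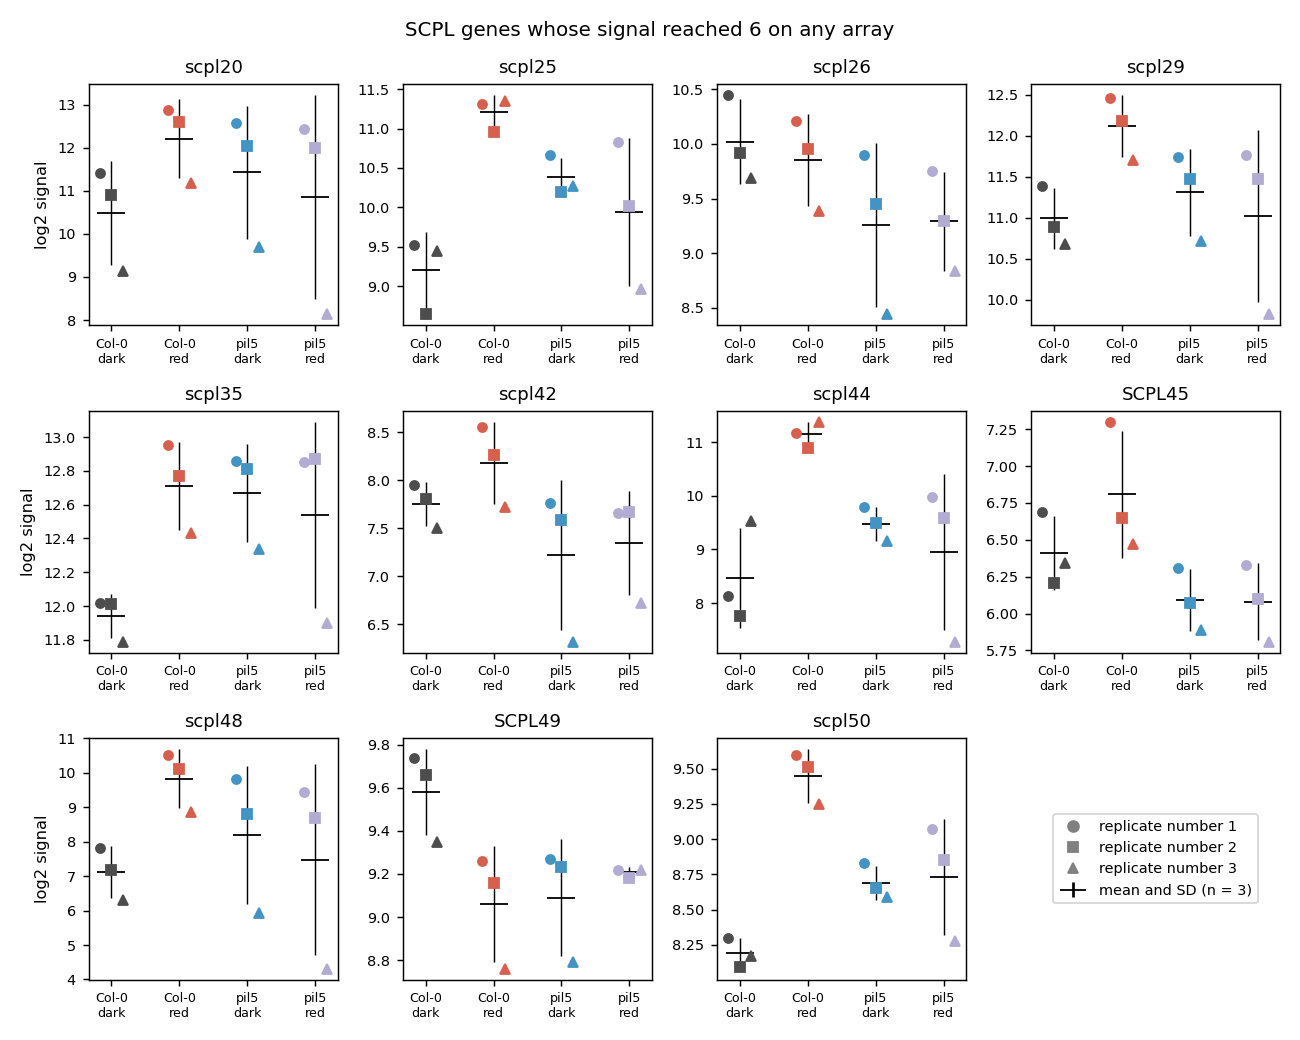
Log2 signal (y axis, a scale of its own in each panel) of the 11 bright SCPL genes in the 4 groups (x axis). Symbols give the replicate number, and bars the mean and SD of 3 arrays. In scpl25, scpl44 and scpl50 the 3 Col-0 red arrays lie above all other arrays, and in scpl20 and scpl48 number 3 is the low array of each group.

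Over the 29 members, 3 rose and 0 fell in this comparison, 10.3% of members, where 15.1% of all probe sets were called (7.81% higher and 7.33% lower). With the block 8 rose and 1 fell, 31.0% of members, against 26.4% of all probe sets (13.4% higher and 13.1% lower). The share of members called in either direction was thus below the background without the block and close to it with the block. By direction, the blocked calls were 8 rises and 1 fall among members, and 3040 and 2969 among all probe sets. This difference in direction was not tested. The members had a median log2 change of 0.09, against 0.00 over all probe sets. For the 11 bright members the median was 1.13, and for the 18 dim ones 0.05, with dim values from -0.12 to 0.30. Without the pil5 red array of number 3, which enters only through the shared estimate of the spread, 6 members rose and 0 fell, 20.7% of members. The additional ones were scpl29, scpl35 and scpl48. In this fit 20.5% of all probe sets were called in either direction, and 2368 of 22746 were higher. Among the dim members SCPL34 (AT5G23210) had 0.30 (SE 0.12, adjusted p = 0.13) and passed without Col-0 red 3 (0.42, adjusted p = 0.031). The leaf marker RCA fell by 0.46 in this comparison (adjusted p = 0.0097), and with the block the root marker PYK10 rose by 1.86 (SE 0.37, adjusted p = 0.0056, and 0.23 without the block). The storage marker PAP85 had -0.91 (adjusted p = 0.073, and 0.051 with the block). Their part in the SCPL values was not tested.

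The second comparison asked which members differed in pil5 when far-red was the last light. In this fit 0 of 29 members passed (limma, 4 at an unadjusted p below 0.05), where 12.1% of all probe sets were called. With the block, scpl25, scpl35 and scpl50 were higher in pil5 and SCPL49, scpl26 and scpl42 lower, 20.7% of members, against 23.8% of all probe sets (11.6% higher and 12.2% lower). Without the pil5 red array of number 3 and without the block, scpl25, scpl35 and scpl50 were called higher and 0 members lower. In that fit 17.4% of all probe sets were called in either direction, and 1991 of 22746 were higher. SCPL49 was called lower without Col-0 dark 3, and scpl25 higher without pil5 red 1. The Col-0 dark arrays entered this comparison and the first, so the 2 are not independent. Of the markers, RCA was lower in pil5 here by -0.62 (adjusted p = 0.0048), and so was PAP85 by -1.06 (SE 0.31, adjusted p = 0.047, and 0.031 with the block). PYK10 had -0.11 (adjusted p = 0.97). Their part in the SCPL values was not tested.

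The signal of scpl25 in pil5 dark was 10.66, 10.20 and 10.27, above all Col-0 dark arrays and below all Col-0 red arrays. It differed from Col-0 dark by 1.18 (SE 0.40, adjusted p = 0.084, and 0.028 with the block). For scpl50 the pil5 dark arrays read 8.83, 8.65 and 8.59, again between the 2 Col-0 groups, and the difference was 0.50 (SE 0.18, adjusted p = 0.1, and 0.017 with the block). In scpl35 they read 12.86, 12.81 and 12.34, within the range of Col-0 red in 2 of 3 arrays and above all Col-0 dark arrays. The difference of 0.73 (SE 0.25, adjusted p = 0.092, and 0.0049 with the block) stood beside the change of 0.77 after red in Col-0. SCPL49 read 9.27, 9.23 and 8.79 in pil5 dark, below all Col-0 dark arrays, a difference of -0.49 (SE 0.16, adjusted p = 0.084, and 0.0094 with the block).

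The genes scpl26 and scpl42 differed between the genotypes in the dark and had no call for red in Col-0. In Col-0 dark scpl26 read 10.45, 9.92 and 9.69, and in pil5 dark 9.90, 9.45 and 8.44. The groups overlapped, and the difference within numbers was -0.55, -0.47 and -1.25 (fitted -0.76, SE 0.37, adjusted p = 0.25, and 0.0046 with the block). For scpl42 (AT5G42240) Col-0 dark read 7.95, 7.81 and 7.50 and pil5 dark 7.76, 7.59 and 6.32. The difference was -0.19 and -0.22 in numbers 1 and 2 and -1.18 in number 3, so its size came mostly from number 3 (fitted -0.53, SE 0.38, adjusted p = 0.47, and 0.049 with the block).

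For scpl44 and scpl48 the replicate numbers differed in sign. The pil5 dark arrays of scpl44 read 9.80, 9.49 and 9.15, which differed from the Col-0 dark arrays of the same number by 1.67, 1.73 and -0.37. For scpl48 they read 9.82, 8.80 and 5.94, with differences of 2.0, 1.61 and -0.38. Both genes were thus higher in pil5 in numbers 1 and 2 and lower in number 3, with fitted differences of 1.01 (SE 0.63, adjusted p = 0.39) and 1.08 (SE 1.28, adjusted p = 0.7). The gene scpl20 read 12.58, 12.03 and 9.69 and was higher than Col-0 dark in each number, by 1.17, 1.12 and 0.56 (fitted 0.95, SE 1.14, adjusted p = 0.7). None of these 3 passed with the block, where adjusted p was 0.32, 0.28 and 0.14 in this order. With the block and without the pil5 red array of number 3, 11 members passed, 7 higher and 4 lower, these 3 genes among the higher ones, where 32.4% of all probe sets were called.

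**Figure D3:**
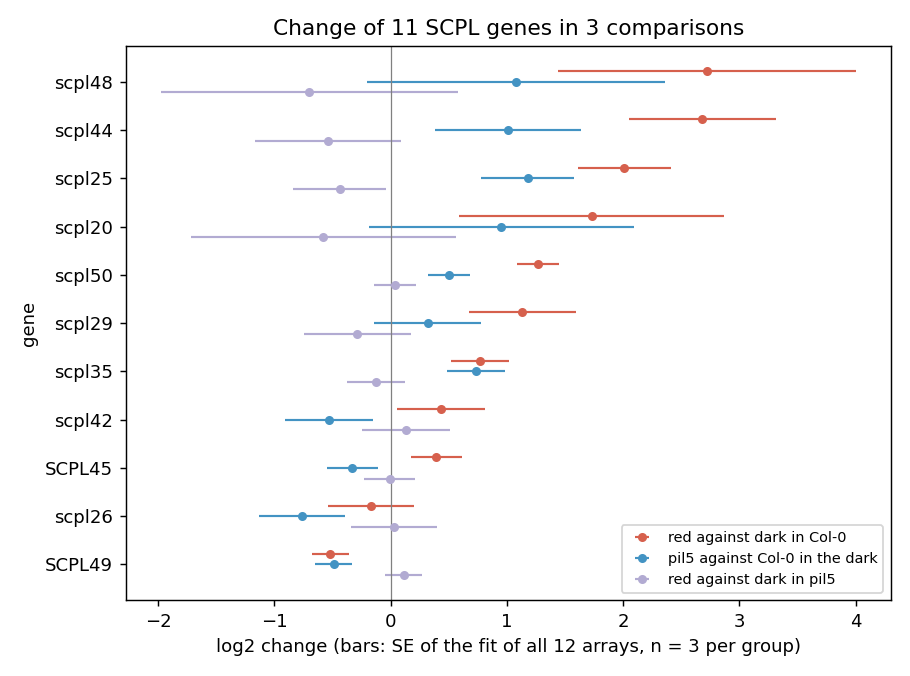
Log2 change (x axis, with the SE of the fit, n = 3 arrays per group) of the 11 bright SCPL genes (y axis) in 3 comparisons: red in Col-0, the mutant in the dark, and red in pil5. The red effect in Col-0 runs from -0.52 for SCPL49 to 2.72 for scpl48, and the red effect in pil5 from -0.70 to 0.13.

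The third comparison was between the red and the dark arrays of pil5. Here 0 of 29 members passed (limma, 2 at an unadjusted p below 0.05, scpl23 and scpl47, both dim), and 0.0% of all probe sets were called. With the block the counts were also 0 of 29 (2 unadjusted) and 0.0%. In scpl25 the pil5 red arrays read 10.83, 10.02 and 8.96, and the differences from pil5 dark were 0.18, -0.18 and -1.32. In scpl50 they read 9.07, 8.85 and 8.28, with differences of 0.24, 0.20 and -0.31. The arrays of numbers 1 and 2 lay close to their dark partners, while that of number 3 was lower than its partner.

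The same array was low in other genes that rose after red in Col-0. On the pil5 red arrays scpl44 read 9.97, 9.59 and 7.28, scpl48 read 9.45, 8.69 and 4.31, and scpl20 read 12.43, 12.00 and 8.13. The differences from pil5 dark were 0.17, 0.10 and -1.88 for scpl44, -0.38, -0.10 and -1.63 for scpl48, and -0.15, -0.03 and -1.55 for scpl20. Of the 11 bright members 5 had their lowest value of all 12 arrays on this array, namely scpl20, scpl29, scpl44, SCPL45 and scpl48. Of the rest, 2 were lowest on pil5 dark 3, 1 on Col-0 dark 3, 1 on Col-0 red 3 and 2 on Col-0 dark 2. In scpl29 the pil5 red arrays read 11.77, 11.47 and 9.82, against 11.74, 11.47 and 10.72 in pil5 dark. In scpl35 they read 12.85, 12.87 and 11.90.

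In SCPL49, scpl26 and scpl42 that array lay above its dark partner. The pil5 red arrays of SCPL49 read 9.22, 9.18 and 9.22, and number 3 lay 0.43 above its dark partner. For scpl26 they read 9.75, 9.29 and 8.84 (0.41 above in number 3), and for scpl42 7.66, 7.67 and 6.72 (0.40 above in number 3). SCPL45 read 6.33, 6.10 and 5.81 in pil5 red and 6.31, 6.07 and 5.89 in pil5 dark. With that array the bright members had a median log2 change of -0.13, and without it 0.27, or 0.09 when the block was also used. The part of the low spike-in reading and of the low PYK10 signal of this array in these values was not tested.

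**Figure D4:**
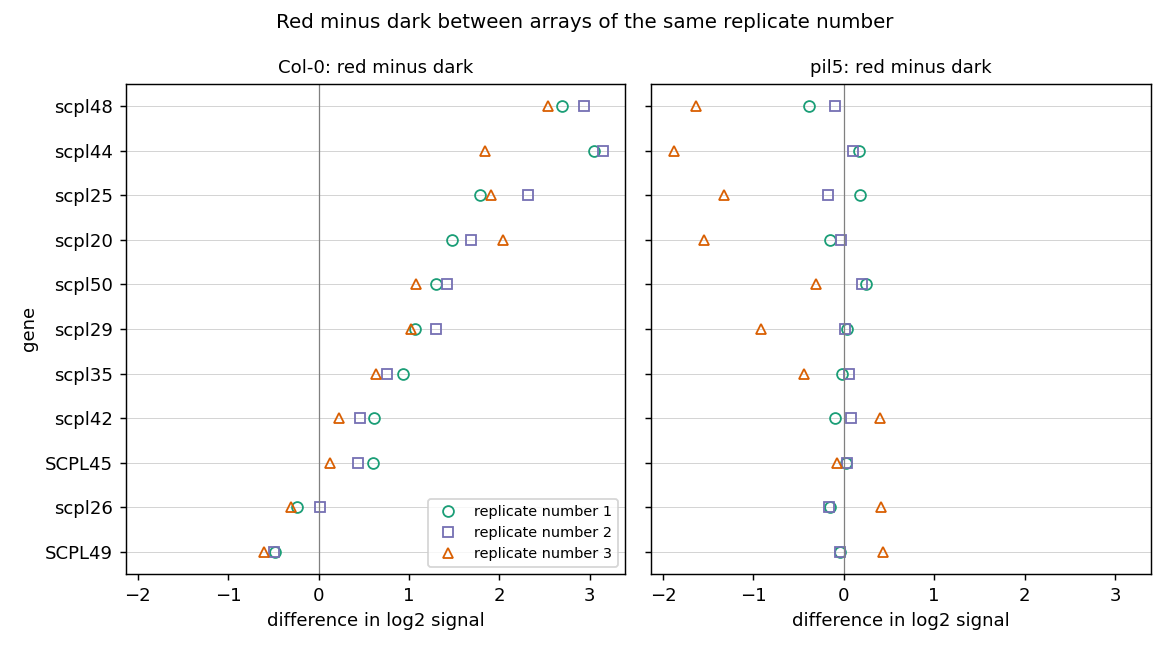
Difference in log2 signal between the red and the dark array of the same replicate number (x axis) for the 11 bright SCPL genes (y axis), in Col-0 (left) and pil5 (right). In Col-0 the 3 numbers of a gene have the same sign in all but scpl26, and in pil5 numbers 1 and 2 lie between -0.38 and 0.24 while number 3 reaches -1.88.

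The fourth comparison was between the genotypes after the red pulse. Of 29 members 0 passed (limma, 5 at an unadjusted p below 0.05), where 0.193% of all probe sets were called. With the block 6 were lower in pil5 and 0 higher, 20.7% of members, against 8.27% of all probe sets (4.7% lower). These were SCPL45 by -0.73 (SE 0.22, adjusted p = 0.22, and 0.0055 with the block), scpl50 by -0.72 (SE 0.18, adjusted p = 0.14, and 0.0095), scpl42 by -0.83 (SE 0.38, adjusted p = 0.43, and 0.018), scpl29 by -1.10 (SE 0.46, adjusted p = 0.38, and 0.023), scpl26 by -0.55 (SE 0.37, adjusted p = 0.6, and 0.041) and scpl25 by -1.27 (SE 0.40, adjusted p = 0.23, and 0.045). All 6 were lower in pil5 in each of the 3 numbers. The same 6 members were also lower with the block and without the pil5 red array of number 3. In that fit 9.6% of all probe sets were called in either direction, and 1148 of 22746 were lower. The root marker PYK10 was also lower in pil5 with the block, by -2.69 (SE 0.37, adjusted p = 0.0037, and 0.27 without the block), and its part in these values was not tested.

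Among the bright members, in scpl25, scpl42, scpl44, SCPL45 and scpl50 the pil5 red and Col-0 red arrays did not overlap. The dim scpl22 and scpl23 did not overlap either, with differences of only -0.19 (SE 0.13) and 0.15 (SE 0.08). How many of all probe sets did not overlap was not counted, so this is no result about the family. The Col-0 red arrays of scpl42 read 8.56, 8.26 and 7.72 and those of scpl26 10.21, 9.95 and 9.39. The largest differences of the comparison, those of scpl48 (-2.35, SE 1.28) and scpl44 (-2.21, SE 0.63), did not pass with the block either (adjusted p = 0.053 and 0.067). In number 3 they were -4.55 and -4.09, against -1.07 and -1.21 in number 1 and -1.42 and -1.31 in number 2. For scpl35 the difference was -0.18 (SE 0.25, adjusted p = 0.83) and for SCPL49 0.15 (SE 0.16, adjusted p = 0.77).

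The interaction tested whether the red effect differed between the genotypes. Of 29 members 2 had a smaller red effect in pil5 and 0 a larger one, 6.9% of members, where 6.34% of all probe sets were called (3.22% below 0). They were scpl25, with an interaction of -2.45 (SE 0.56, adjusted p = 0.033, and 0.0099 with the block), and scpl50, with -1.22 (SE 0.26, adjusted p = 0.026, and 0.0045 with the block). The size for scpl25 included the low pil5 red array of number 3, without which it was -1.96 (adjusted p = 0.024), and that for scpl50 was then -1.0 (adjusted p = 0.015). With the block 7 were below 0 and 1 above, 27.6% of members, against 17.5% of all probe sets (8.74% above 0 and 8.73% below). The additional ones were scpl35 (-0.90), scpl29 (-1.42), scpl20 (-2.31), scpl48 (-3.42) and scpl44 (-3.21), and SCPL49 (0.64), which fell after red in Col-0 with the block. PYK10 also had an interaction below 0 with the block (-2.59, SE 0.53, adjusted p = 0.012, and 0.3 without the block), whose part in these values was not tested.

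These calls depended on single arrays. In the fit with no block 0 members were called once number 1 or 2 of either Col-0 group, or pil5 dark 1, was left out. Only scpl50 was called without pil5 dark 2, pil5 dark 3, pil5 red 2 or Col-0 red 3. With scpl44 added, 3 were called without Col-0 dark 3, pil5 red 1 or pil5 red 3. The number of all probe sets called went from 68 to 635 in the fits with 0 members called, from 599 to 898 in those with 1, and from 1335 to 2104 in those with 3. With the block and without pil5 red 3, 8 members passed and 18.0% of all probe sets were called. The interaction was then -1.84 without and -2.50 with the block for scpl48, against -3.42 on all arrays.

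The order of the group levels differed among the bright members. In scpl20, scpl25, scpl29, scpl44, scpl48 and scpl50 the Col-0 red group had the highest mean and Col-0 dark the lowest. The means of scpl50 were 8.19 ± 0.11 (SD, n = 3) in Col-0 dark, 8.69 ± 0.12 in pil5 dark, 8.73 ± 0.41 in pil5 red and 9.45 ± 0.19 in Col-0 red, where the 2 pil5 groups did not differ beyond their spread. In scpl25 the means were 9.20 ± 0.49 in Col-0 dark, 9.94 ± 0.94 in pil5 red, 10.38 ± 0.25 in pil5 dark and 11.21 ± 0.22 in Col-0 red. In scpl35 Col-0 dark, at 11.94 ± 0.13, was the low group, and the other 3 groups had means of 12.54 to 12.71. SCPL49 was the reverse, with Col-0 dark at 9.58 ± 0.20 and the other groups at 9.06 to 9.21. In scpl26, scpl42 and SCPL45 both pil5 groups had lower means than both Col-0 groups.

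Other genes around the family were few on this annotation. Of 20 genes of sinapate ester and general phenylpropanoid synthesis, which makes the acyl donor of the SCPL acyltransferases, 4 were measured. In Col-0 after red 2 of them fell and 0 rose, where 7.33% of all probe sets fell. They were ALDH2C4, which oxidises sinapaldehyde to sinapate, with a log2 change of -3.03 (SE 0.13, limma adjusted p = 2e-06), and HCT, an acyltransferase of the general pathway, with -1.24 (SE 0.24, adjusted p = 0.0071). UGT84A3, a glucosyltransferase that forms hydroxycinnamate glucose esters, had -1.25 (SE 0.77, adjusted p = 0.36, but 0.0018 in the blocked fit), and UGT84A1 had -0.02. The median of the 4 was -1.24, against 0.00 over all probe sets. In the dark ALDH2C4 (-3.03, SE 0.13, adjusted p = 2.9e-06) and HCT (-1.07, SE 0.24, adjusted p = 0.018) were also lower in pil5. There 12.1% of all probe sets were called in either direction, and 1366 of 22746 were lower. Both had a positive interaction, 3.15 (SE 0.19, adjusted p = 8e-05) and 1.40 (SE 0.34, adjusted p = 0.037), where 6.34% were called in either direction and 710 of 22746 above 0. On the pil5 red array of number 3 HCT read 8.38, against a group mean of 7.74 ± 0.55 (SD, n = 3), and ALDH2C4 9.29, against 9.17 ± 0.1.

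Of 20 other proteases of seeds and vacuoles 9 were measured. In Col-0 after red 3 of them were called, where 15.1% of all probe sets were. Of these 1 rose, the cysteine proteinase gene CP1 by 2.40 (SE 0.60, adjusted p = 0.021), and 2 fell. The falling ones were the aspartic proteinase genes AT1G62290, with -1.47 (SE 0.21, adjusted p = 0.002), and APA1, with -0.37 (SE 0.10, adjusted p = 0.032). DELTA-VPE, a vacuolar processing enzyme gene, also rose with the block (1.29, SE 1.02, adjusted p = 0.52, and 0.011 with the block). In pil5 in the dark CP1 (2.45, SE 0.60, adjusted p = 0.025) and ALPHA-VPE (1.55, SE 0.4, adjusted p = 0.031) were higher. AT1G62290 was lower (-1.53, SE 0.21, adjusted p = 0.0031), where 12.1% of all probe sets were called in either direction. With the block ARA12 (0.54, adjusted p = 0.0086) was also higher and BETA-VPE (-0.53, adjusted p = 0.018) lower, where 23.8% of all probe sets were called. The median of the 9 was -0.33 for red in Col-0. For red in pil5 0 of the 9 passed (limma), with or without the block. Without the block the interaction was positive for AT1G62290 (1.63, SE 0.29, adjusted p = 0.019), where 6.34% of all probe sets were called in either direction and 710 of 22746 above 0. With the block 2 of the 9 had a positive and 2 a negative interaction, where 8.74% of all probe sets were called above 0 and 8.73% below. The positive ones were AT1G62290 and GAMMA-VPE (0.76, SE 0.24, adjusted p = 0.091, and 0.04 with the block). The negative ones were CP1 (-3.03, SE 0.84, adjusted p = 0.06, and 0.026 with the block) and DELTA-VPE (-1.47, SE 1.44, adjusted p = 0.66, and 0.04 with the block). These sizes include the pil5 red array of number 3. CP1 read 10.5 on it, against a group mean of 12.34 ± 1.6 (SD, n = 3). DELTA-VPE read 4.91 (mean 6.66 ± 1.56), GAMMA-VPE 8.68 (8.35 ± 0.31) and AT1G62290 9.16 (9.07 ± 0.13).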

How the data were processed

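RNA levels of 12 seed samples were measured on Affymetrix arrays with biotinylated cRNA, per the labels' protocols. The deposited table holds log2 values from 2.87 to 14.75, normalized across arrays by the authors, as its nearly equal quantiles show. MAS5 5.0 and RMA are named, with no role given, per the submitters' processing notes. Values were used as deposited, with 64 control probe sets set aside, which left 22746, and no filter on dim ones. Of these 13513 had 1 gene in the supplied annotation. The members, gene lists and tests were chosen with earlier results of these data known. The rule for named genes took every member. It also took family genes of other names and up to 5 called genes of each list per comparison.

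A limma 3.58.1 model (R 4.3.3) took all 12 arrays, with a mean for each group. Its moderated tests were two-sided, eBayes used no trend, and p was adjusted by Benjamini-Hochberg over all probe sets, at a threshold of 0.05. Fold values are 2 to the power of the log2 change. Deviations from group means correlated at r from 0.174 to 0.709 between arrays of different groups with the same replicate number, and from -0.677 to 0.407 otherwise. These ranges overlap, and deviations from a group mean cancel out within the group, so the ranges are not independent of each other. The numbers were taken to pair the arrays, from the data, since the labels do not say what they stand for. Calls made only with the block rest on this pairing. The fit with no block was run on simulated data with independent noise on each array. That simulation had no link between replicate numbers and no array that stood apart, so it does not cover these features of the data. Background correction and slide could not be varied, as no scanner files were used. The other settings were a replicate block, quantile normalization, only the 6 arrays compared, removal of the dimmest 25% of probe sets, median centring, eBayes with trend and robust, the mean of a gene's probe sets, and leaving out each array. The block without pil5 red 3 was added after the data were seen. No sequences were printed, as none were used here. Plots used matplotlib 3.10.9 under Python 3.11.15.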

Additional observations from a re-analysis of the deposited data

Results flagged for a closer look

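The interaction of genotype and red light passed in limma for 2 members, where the red effect was smaller in pil5 than in Col-0. This was 6.9% of members, against 6.34% of all probe sets in either direction, a share close to the background, and 3.22% of all probe sets below 0. It was -2.45 for scpl25 (SE 0.56, adjusted p = 0.033, and 0.012 to 0.095 with 1 array left out) and -1.22 for scpl50 (SE 0.26, adjusted p = 0.026, and 0.013 to 0.081 with 1 array left out). In Col-0 both genes were higher after red in each of the 3 replicate numbers, and in pil5 the arrays of number 3 went down in both.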

How the results depend on the processing

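No called log2 change of an SCPL gene changed sign in any setting run. Counts are of probe sets, then of SCPL genes. With the replicate block, red in Col-0 had 6009 and 9, pil5 in the dark 5406 and 6, pil5 after red 1880 and 6, and the interaction 3973 and 8. With the block and without pil5 red 3 (chosen after seeing the data) they were 7785 and 9, 7377 and 11, 2183 and 6, and 4086 and 8. With only the 6 arrays compared they were 4086 and 6 (red in Col-0) and 2553 and 3 (pil5, dark), and 0 probe sets were called for pil5 after red. Median centring gave 3314 probe sets and 5 SCPL genes for red in Col-0, and 72 probe sets and 0 SCPL genes for pil5 after red. Leaving out 1 array gave 1587 to 4668 probe sets and 2 to 6 SCPL genes for red in Col-0, 769 to 3965 and 0 to 3 for pil5 in the dark, 3 to 112 and 0 to 0 for pil5 after red, and 68 to 2104 and 0 to 3 for the interaction. Red in pil5 had 0 of both in every setting run. The other settings stayed within 1.5 times of the fit of all arrays. The only 6 arrays of a comparison cannot give the interaction, which was not run so. Signals of 18 dim members stayed below 6, where a change of RNA may not show in the signal.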
